A study of Mus musculus with 14 samples.

Results

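Trp63 and Tprg are neighbouring genes on mouse chromosome 16, and they are described here together with every listed CpG position between 25 and 26.5 Mb of that chromosome. The genes were found by Ensembl identifier and the CpG positions by coordinate, in mammary tumours of mice whose mothers had or had not eaten genistein, a soy isoflavone. Both genes were among the 1324 genes that the authors listed as changed in RNA. The interval held 9 of the 4327 listed CpG positions, 1 of the 139 listed regions and 6 of the 589 lines that pair a listed gene with a listed position. All of these tables hold only what the authors called in this same comparison, so the values below describe the members and no test of them is given.

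The tumours came from FVB mice of about 25 weeks with the genotype SV40 Tag, a viral antigen transgene whose promoter is not given in the sources used here. All offspring, in both groups, ate control diet. Mothers of the control group ate control diet, and mothers of the maternal genistein group ate 250 mg/kg genistein from 4 weeks of age until weaning. RNA-seq and RRBS (reduced representation bisulfite sequencing, a readout of methylation at CpG dinucleotides near the cut sites of an enzyme) each had 3 control and 4 maternal genistein libraries. Nothing in the labels says whether tumours of a group came from separate mothers or litters. The diets were given to the mothers, so tumours of the same litter would not be independent. The SDs and the tests below take the 3 and 4 libraries as independent, and the number of independent units may be smaller. A spread between libraries may also be partly technical. The labels name no batch.

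p63, the protein of Trp63, is a transcription factor of the p53 family that stratified epithelia need to form. In the mammary gland it marks basal and myoepithelial cells and is absent from most luminal cells. The gene has separate promoters for a long form with a transactivation domain and for a shorter form without it, and basal epithelium mostly makes the shorter one. Tprg is named as a gene regulated by p63, and its own function is less well described. The gene counts used here do not separate the forms of p63.

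Trp63 (ENSMUSG00000022510) spans 25683763 to 25892088 and Tprg (ENSMUSG00000048399) spans 25286817 to 25423588 on assembly GRCm38.p6, with a gap of 260.2 kb between them. RefSeq promoter sequence was matched for 1 of the 2 genes. It is shown for its CpGs, the kind of position RRBS reads near a cut site, and capitals mark them in the 250 bases before and 50 bases after the start of Tprg (plus strand, chr16:25286567-25286866, GRCm38.p6).
Tprg promoter: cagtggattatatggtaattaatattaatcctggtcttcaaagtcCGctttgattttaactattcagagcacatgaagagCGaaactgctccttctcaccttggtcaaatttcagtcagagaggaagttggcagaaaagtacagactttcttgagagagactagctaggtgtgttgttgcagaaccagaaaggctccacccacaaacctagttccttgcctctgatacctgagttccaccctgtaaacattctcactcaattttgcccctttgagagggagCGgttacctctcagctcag
The window holds 3 CpGs, against a median of 7 over 32851 RefSeq promoter windows of the same length, and 31.4% of those windows hold as few. It holds 0 copies of CCGG, the letters at which the usual RRBS enzyme cuts (the enzyme is not given in the sources used here). None of its CpGs is a listed position, which says nothing of their methylation, and the nearest listed position lies 90.4 kb after the start of the gene.

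Both genes had high positive fold changes in RNA. In the authors' deposited table, Trp63 had a DESeq log2 fold change of 4.73 (SE 0.71), which is a 26.5-fold difference with 16.3-fold and 43.3-fold at 1 SE on either side. For Tprg the authors' deposited table has a log2 fold change of 4.97 (SE 0.68), or 31.4-fold with 19.7-fold and 50.2-fold at 1 SE. Their standard errors overlap, and a difference between the 2 folds was not tested. The edgeR log2 fold changes in the authors' deposited table were 4.70 and 4.93. The header does not name the numerator, and a positive fold is taken to mean more RNA in the maternal genistein group. This reading rests on DNA coverage: over 20 chromosomes, the percentage of positive genes and the coverage difference between the groups had a Pearson's r of 0.901, and 0.899 without chromosome 16. These chromosomes share libraries, so r is a description, and the other reading would turn every RNA direction given here. By the exact permutation test described below, 0 of 20 chromosomes had a coverage difference with an unadjusted p under 0.05. Taking positive as more RNA also assumes that RNA follows DNA coverage, which was not tested. The labels do not tie RNA libraries to RRBS libraries of the same tumour.

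The mean normalised count over all tumours in the authors' deposited table was 2138 for Trp63, rank 233 of the 1324 listed genes. For Tprg it was 131.7 in the authors' deposited table, rank 1024. These counts are not per length, so they do not compare the levels of the genes. By positive fold, Tprg ranked 33 and Trp63 37 in the authors' deposited table. The DESeq adjusted p-values that put them in the authors' deposited table were 6.28e-09 for Trp63 and 8.95e-11 for Tprg, and the edgeR false discovery rates there were 1.72e-08 and 1.41e-06. Levels in single tumours were not analysed here, so whether 1 tumour carries the folds could not be examined. In bulk tumour RNA, more cells of a type and more RNA per cell cannot be told apart.

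All 9 listed CpG positions of the interval were less methylated in the maternal genistein tumours, by 28.0 to 66.2 percentage points with a median difference of -44.4 points. The smallest, at 25377243, went to -18.2 points without maternal genistein replicate 2. Over all listed positions 46.9% were lower, and the median among those was -31.3 points. The groups did not overlap at 5 of the 9 positions, where 27.8% of all listed positions do not overlap. The table was chosen on this contrast, so nothing is read from these shares. Without control replicate 3 the groups were apart at all 9 positions, without maternal genistein replicate 4 at 8 and without maternal genistein replicate 3 at 6. Without any other single library the count stayed at 5. Leaving out a library cannot lower this count, and the share of all listed positions under the same removals is not given here. Nothing is therefore read from the higher counts. The positions are numbered 1 to 9 along the chromosome: 1 and 2 are intronic in Tprg, 3 to 5 lie between the genes and 6 to 9 are intronic in Trp63. Positions 4 and 5 share reads, as do 6 to 8, so the 9 are not separate measurements.

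**Figure D1:**
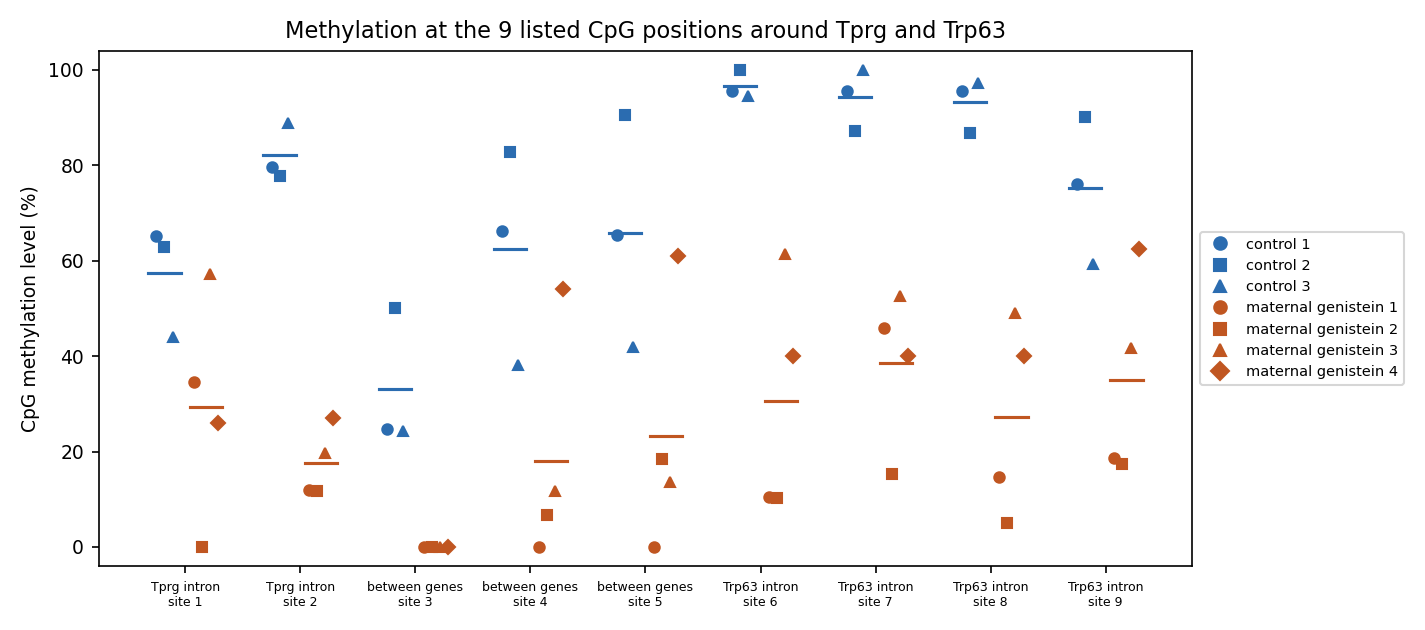
Methylation level (%) of each RRBS library at the 9 listed CpG positions of the interval, in chromosome order, with control libraries in blue, maternal genistein libraries in orange and bars at the group means. The groups lie apart at positions 2, 3, 6, 7 and 8, and at position 3 every maternal genistein library is at 0%.

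Within Tprg, the intronic position at 25385320 (number 2) lies 98.5 kb after the gene start. Its level was 79.7%, 77.9% and 88.9% in control replicates 1 to 3, and 12.0%, 11.8%, 19.6% and 27.0% in maternal genistein replicates 1 to 4. The means were 82.1% ± 5.91 (SD, n = 3) and 17.6% ± 7.26 (SD, n = 4), at 64 to 167 reads, and every control library was above every maternal genistein library by at least 50.9 points. This position had the widest gap between the groups among the 9, and ranked 58 among the 4327 by absolute difference. Position 1 at 25377243, 8077 bases away and also intronic, behaved less uniformly. It was at 65.2%, 62.96% and 44.0% in control and at 34.6%, 0%, 57.1% and 25.9% in maternal genistein replicates, at 27 to 54 reads. Maternal genistein replicate 3 was above control replicate 3 there, so the groups overlapped, and the 0 of 28 reads in maternal genistein replicate 2 allows a level of up to 10.7%.

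Between the genes, the position at 25466091 (number 3) lies 42.5 kb after the end of Tprg. It was at 24.7%, 50% and 24.4% in control, 33.0% ± 14.7 (SD, n = 3). No methylated read was seen in any maternal genistein library, among 67, 51, 52 and 28 reads, which allows up to 4.48%, 5.88%, 5.77% and 10.7%. It was the 1 position of the interval where a whole group was unmethylated at this depth. Its controls were also the lowest of the 9 positions, which limits the size of the difference to -33.0 points.

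The pair at 25585162 and 25585164 (numbers 4 and 5), 98.6 kb before the start of Trp63, varied widely among libraries of each group. These positions are 2 bases apart and had equal read numbers in 5 of 7 libraries, so they share reads and are close to 1 measurement. At the first the level was 66.2%, 82.9% and 38.2% in control and 0%, 6.60%, 11.7% and 54.0% in maternal genistein replicates, at 74 to 110 reads. The 0 of 81 reads in maternal genistein replicate 1 allows up to 3.70%. At the second it was 65.3%, 90.5% and 41.8% in control and 0%, 18.5%, 13.6% and 61.0% in maternal genistein replicates. Maternal genistein replicate 4 was above control replicate 3 at both, and the other maternal genistein replicates were below every control. At the first position the exact 95% binomial interval of maternal genistein replicate 4, 43.7% to 64.0%, overlapped that of control replicate 3, 29.1% to 47.9%. Intervals and limits cover counting error only, since PCR reads are not independent molecules.

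In the Trp63 intron, 4 positions within 32 bases lie 152.2 kb after the gene start and 56.1 kb before its end. Positions 25835935, 25835951 and 25835965 (numbers 6 to 8) had the same read numbers in nearly every library, so these 3 also share reads. At the first the level was 95.6%, 100% and 94.6% in control and 10.4%, 10.3%, 61.4% and 40.0% in maternal genistein replicates. Control libraries stood near full methylation with little spread, while maternal genistein replicates 3 and 4 stood well above replicates 1 and 2. The means were 96.7% ± 2.88 (SD, n = 3) and 30.5% ± 24.9 (SD, n = 4), and the difference of -66.2 points was the largest of the interval by means over libraries. With reads pooled within groups, 25835965 had the largest, -71.5 points against -69.5 points here. Maternal genistein replicate 4 had 10 reads, for which 40.0% has an exact 95% interval of 12.2% to 73.8%.

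At 25835951 the control levels were 95.6%, 87.1% and 100% and the maternal genistein levels 45.8%, 15.4%, 52.6% and 40.0%. At 25835965 they were 95.6%, 86.7% and 97.3% against 14.6%, 5.13%, 49.1% and 40.0%. Maternal genistein replicate 1 thus differed between positions on the same reads, with 22 of 48 reads methylated at the middle position and 5 and 7 of 48 at the others. The groups were apart at all 3 positions, by 33.2 to 37.5 points.

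Positions 25835965 and 25835966 (numbers 8 and 9) are 1 base apart, which places them on the opposite strands of 1 CpG, and they were read by different fragments. At the second strand the level was 76.1%, 90.1% and 59.3% in control and 18.6%, 17.3%, 41.7% and 62.5% in maternal genistein replicates, at 24 to 108 reads. There the lowest control minus the highest maternal genistein library was -3.24 points, so the groups overlapped, at control replicate 3 and maternal genistein replicate 4. In control replicate 3 the strands differed by 38.0 points, with exact 95% intervals of 85.8% to 99.9% and 49.4% to 68.6%. Control replicate 1 differed by 19.5 points in the same direction, with 84.9% to 99.5% against 66.1% to 84.4%, and control replicate 2 by -3.43 points. In control replicates 1 and 3 the difference between strands was thus larger than the SD of the controls, 5.70 points on the first strand and 15.4 on the second. In maternal genistein replicates 1 to 4 the first strand minus the second was -3.97, -12.2, 7.46 and -22.5 points. The signs there were mixed, and the intervals of the strands overlapped in each of these libraries.

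**Figure D2:**
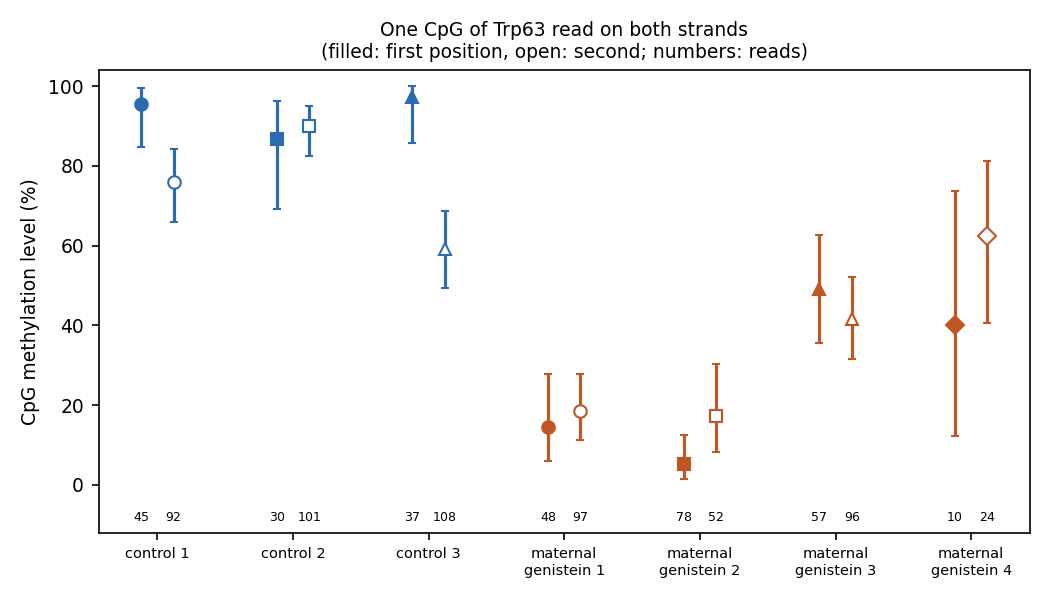
Methylation level (%) of 1 CpG in an intron of Trp63, read at the first position (filled) and on the opposite strand (open) in each RRBS library, with exact 95% binomial intervals and the number of reads below. The intervals of the strands do not overlap in control replicates 1 and 3, and they overlap in the other libraries.

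The authors' deposited region table holds 1 region in the interval, from 25835935 to 25835966, which is made of these 4 positions. Its mean methylation in the authors' deposited table was 87.8% for the controls and 33.2% for the maternal genistein group, a difference of -54.6 points and rank 32 of 139 by size. Of the listed regions 66.2% were lower. Its 4 CpG positions are 3 distinct CpGs, since 1 CpG is counted on both strands. It is an intronic region, and chromosome 16 has 3 listed regions in all.

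Libraries differed in a median taken over the listed positions of the interval. The median level over the 9 positions was 76.1%, 86.7% and 59.3% in control replicates 1 to 3. It was 12.0% and 10.3% in maternal genistein replicates 1 and 2, and 41.7% and 40.0% in replicates 3 and 4. All maternal genistein medians lay below all control medians, and control replicate 3 was the lowest control. Of the 9 positions, 4 lie in 1 stretch of 32 bases in an intron of Trp63, and 3 of these share reads. The medians thus lean on that stretch and do not describe the interval evenly. Maternal genistein replicate 4 was also the shallowest library, with 10 to 100 reads at these positions and 113967 reads over all listed positions, where the other 6 libraries had 174933 to 226194. The part of depth in its level was not tested.

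The nearest listed positions outside the interval did not share 1 direction. Below it, an exonic position of Masp1 at 23514006 had a mean of 81.8% ± 16.4 (SD, n = 3) over controls, against 37.2% ± 13.6 (SD, n = 4) with maternal genistein. Above it, an intronic position of Uts2b at 27369649 had 53.1% ± 23.0 over controls against 88.7% ± 2.58 with maternal genistein. Within 10 Mb on either side, 26 of the 49 other listed positions were lower and 23 higher. Over the rest of chromosome 16, 92 of 171 listed positions were lower.

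Likeness was measured to position 25585164, whose lowest coverage of 75 reads was the highest of the 9. The measure was the mean absolute difference in level over the 7 libraries. An intronic position of Anxa13 on chromosome 15 at 58379194 was the most alike among listed positions outside the interval, at 7.10 points. It was followed by a position between Arap3 and Pcdh1 (chromosome 18, 38017623) at 7.53 points and an intronic position of Zic4 (chromosome 9, 91377578) at 7.64 points. An exonic position of Ank2 (chromosome 3, 126947641) stood at 8.44 points and an intronic position of Sema3f (chromosome 9, 107708537) at 8.69 points. In these 5, as at 25585164, control replicate 2 was the highest of the controls and maternal genistein replicate 4 the highest of its group. The 5 were chosen by these same library levels, so a shared order follows from the choice and nothing is read from it.

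The authors paired Trp63 with its 4 intronic positions and Tprg with its 2, and the 3 positions between the genes are in no pair. Higher RNA with lower methylation, the combination of both genes, made up 187 of 588 distinct pairs in the authors' deposited table (31.8%). Higher RNA with higher methylation made up 179 there, lower RNA with higher methylation 139 and lower RNA with lower methylation 83. Of 30 genes with 4 or more paired positions, 11 had every position lower, and 7 of these, Trp63 among them, had positive folds in the authors' deposited table. The 4 positions of Trp63 lie within 32 bases and partly share reads, so their common direction is not 4 separate observations. The labels do not tie an RNA library to an RRBS library of 1 tumour, so expression and methylation were not compared tumour by tumour.

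Of the protein-coding genes in the interval, P3h2, Cldn1 and Cldn16 were not listed. Gene starts within 5 Mb of that of Trp63 include 9 other listed genes, 6 positive and 3 negative, against 58% positive among all listed genes. In the authors' deposited table Atp13a5, a P-type ATPase, had a log2 fold change of 5.17 (SE 0.80), with a low mean normalised count of 42.1. Masp1, a serine protease of the lectin pathway of complement, had 3.77 (SE 0.67) by the authors' deposited table. On GRCm38.p6 Masp1 shares 1022 bases with Rtp4, and how reads there were counted is not given in the sources used here. Tmem44 at 1.53, Lppos at 1.03, Mb21d2 at 0.95 and Dnajb11, a chaperone of the endoplasmic reticulum, at 0.73 were positive in the authors' deposited table. Lppos shares 306 bases with Lpp, and the strand setting of the counting is likewise not given. Lppos, Mb21d2 and Dnajb11 stood at 0.311, 0.153 and 0.0745 in edgeR false discovery rate by the authors' deposited table. The negative ones in the authors' deposited table were Etv5, an ETS factor downstream of growth factor signalling, at -2.77 (SE 0.41), Il1rap, the accessory protein of the interleukin 1 receptor, at -1.39 and St6gal1, a sialyltransferase, at -1.27. Genes on either side of Trp63 and Tprg therefore went in both directions.

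Over the whole chromosome, 41 of the 50 other listed protein-coding genes were positive, with a median log2 fold change of 1.04 in the authors' deposited table. With Trp63 and Tprg included, 82.7% of listed protein-coding genes of chromosome 16 were positive, against 58% of all listed genes. Chromosomes 4, 9 and X had higher shares, at 84.6%, 86.7% and 86.8%. The folds of Trp63 and Tprg lie well above the median of chromosome 16. Within the chromosome Atp13a5 had a larger positive fold in the authors' deposited table.

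**Figure D3:**
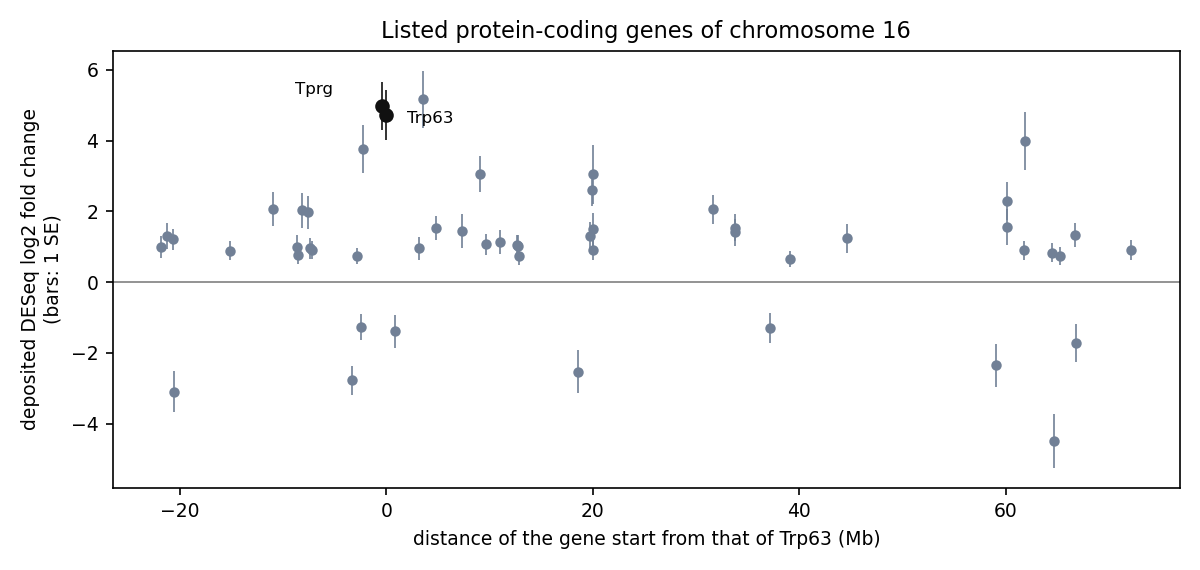
Deposited DESeq log2 fold change (bars, 1 SE) of each listed protein-coding gene of chromosome 16 against the distance of its start from that of Trp63 in Mb, with Trp63 and Tprg in black. Positive values, read as higher in maternal genistein tumours, prevail along the chromosome, and Trp63 and Tprg stand at 4.73 and 4.97. The other genes within 5 Mb are negative at -1.27, -1.39 and -2.77 and positive at 0.73, 0.95, 1.53, 3.77 (Masp1) and 5.17 (Atp13a5).

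DNA coverage is a readout whose difference between the groups did not choose these members, and it was tested. Every listed position has at least 10 reads in each library, so coverage itself may have had a part in the listing. Such a floor would bear most on maternal genistein replicate 4, with a median of 18 reads at listed positions against 30 to 41 in the other libraries. Its effect on relative coverage was not tested. Relative coverage is the log2 read number at listed positions less the mean of that position over libraries and less the autosomal median of the library, and its median over the 180 positions of chromosome 16 was compared. It was -0.08, -0.06 and -0.12 in control replicates 1 to 3, and 0.15, 0.18, -0.15 and 0.14 in maternal genistein replicates 1 to 4. Maternal genistein replicate 3 was below all controls and the other 3 above them. The mean difference of 0.17 did not pass a two-sided exact permutation test (p = 0.143, adjusted p = 0.317 over 20 chromosomes), where the smallest p that 3 and 4 libraries allow is 0.0286. By this test 0 of 20 chromosomes (0.00%) had an adjusted p under 0.05, and 0 had an unadjusted p under 0.05.

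Within 10 Mb of the interval, over 58 positions, relative coverage was -0.45, 0.00 and 0.07 in control and 0.32, 0.28, -0.12 and 0.18 in maternal genistein replicates. The difference of 0.29 again did not pass (two-sided exact permutation p = 0.171). Control replicate 1 was low and maternal genistein replicate 3 lay between the controls. A coverage difference over this stretch was thus not detectable with these libraries, which does not show that there is none. Over the 9 positions themselves the values ran from -0.14 to 0.06 in control and from -0.22 to 0.34 in maternal genistein libraries.

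**Figure D4:**
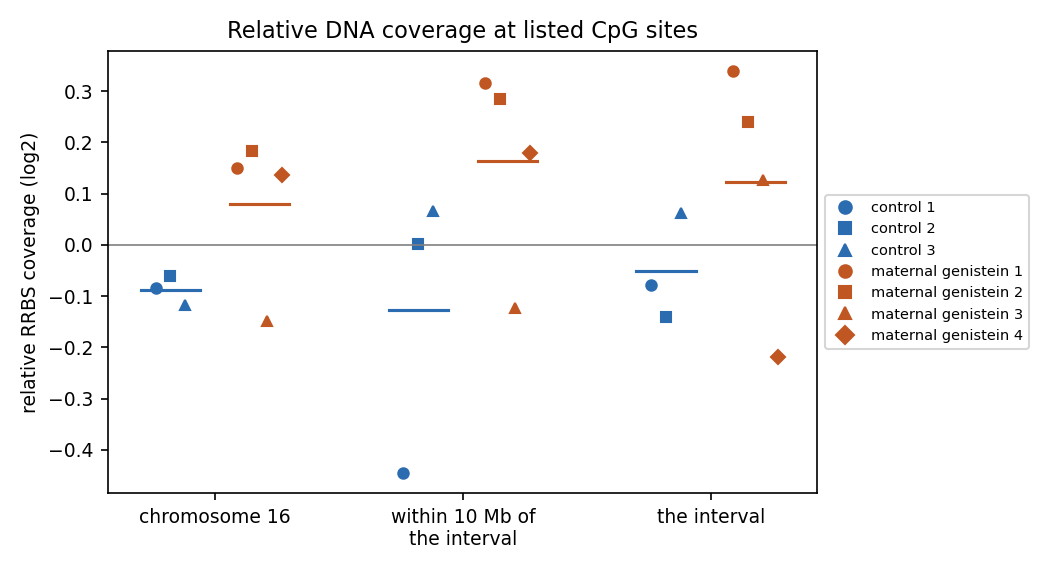
Relative RRBS coverage (log2) of each library over chromosome 16, within 10 Mb of the interval and in the interval itself, with control libraries in blue, maternal genistein libraries in orange and bars at the group means. The groups overlap in all 3 windows, with maternal genistein replicate 3 at -0.15 on chromosome 16 and control replicate 1 at -0.45 within 10 Mb.

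Genes described elsewhere as p63 targets in keratinocytes and ectoderm were mostly positive where listed. Of 40 such genes 16 were listed, 13 positive and 3 negative, where 7.19% of the 18425 genes tested by the authors were listed and 58% of listed genes were positive. The list was drawn up with earlier results of these tumours known, so it is not independent evidence of a direction. The median log2 fold change of the 16 was 2.15 in the authors' deposited table, against 0.89 over all listed genes. With the threshold on the DESeq adjusted p moved to 0.01, 8 positive and 0 negative ones remained in the authors' deposited table. The negative Itga6 lay just past that threshold, at a DESeq adjusted p of 0.0102. The share of positive genes among all listed genes at 0.01 is not given here, so nothing is read from these counts.

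Among the regulators, the homeobox genes Dlx6 and Dlx5, which lie side by side on chromosome 6, stood at 5.78 (SE 0.79) and 4.68 (SE 0.65) as log2 folds of the authors' deposited table. Dlx3, another gene of that family, was at -1.94 (SE 0.59) there. Snai2, a zinc finger repressor of epithelial genes that also lies on chromosome 16, was at 2.07 (SE 0.48) by the authors' deposited table.

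Structural genes of basal cells included Krt5, the basal keratin, at 4.49 (SE 0.78), and Col17a1, a collagen of hemidesmosomes, at 4.05 (SE 1.24) by the authors' deposited table. The cadherins Dsg3 of desmosomes and Cdh3 were at 2.49 (SE 0.44) and 2.09 (SE 0.71) by the authors' deposited table, and the laminin chain Lama3 at 1.36 (SE 0.42). Fras1, a protein of the basement membrane, was at 2.22 (SE 0.77) by the authors' deposited table. Cdh3 and Fras1 had edgeR false discovery rates of 0.0737 and 0.074 there. Itga6, the integrin partner of hemidesmosomes, went the other way at -1.25 (SE 0.36) by the authors' deposited table.

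Of the signalling genes, the growth factor receptors Fgfr2 and Fgfr3 were at 3.57 (SE 0.66) and 2.55 (SE 0.67) by the authors' deposited table. Jag2, a Notch ligand, was at 1.47 (SE 0.28) and Sfn, a 14-3-3 protein of epithelium, at 1.51 (SE 0.44) by the authors' deposited table. Bmp7, a growth factor of the bone morphogenetic family, was at -2.49 (SE 0.86) there. The other 24 genes of the list, among them Krt14, Perp and Itgb4, were not listed and were not analysed here.

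**Figure D5:**
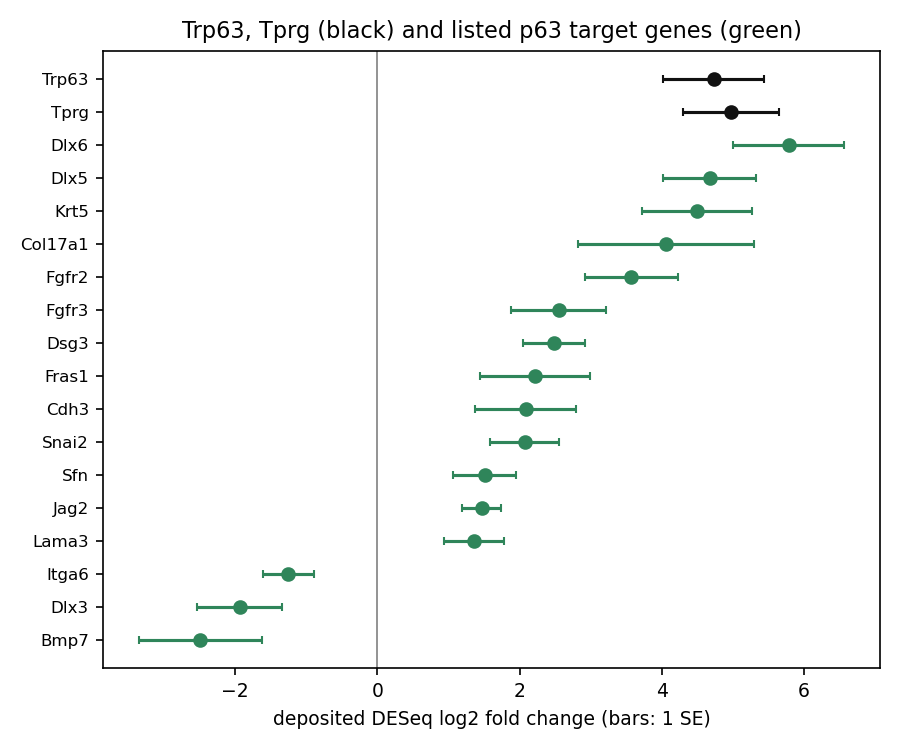
Deposited DESeq log2 fold change with 1 SE of Trp63 and Tprg (black) and of the 16 listed p63 target genes (green). Trp63 and Tprg stand at 4.73 and 4.97, Dlx6 is the highest target at 5.78, and Itga6, Dlx3 and Bmp7 are below 0.

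Of the 16 listed targets 5 (31.2%) had a listed CpG position in the authors' deposited table of pairs, where 26.7% of all listed genes had any. These were Fgfr2 and Dlx3 with 4 each, Cdh3 with 2, and Fras1 and Jag2 with 1. Their directions were mixed, with 1 of 4 lower at Fgfr2, 2 of 4 at Dlx3, 1 of 2 at Cdh3, the 1 at Fras1 lower and the 1 at Jag2 higher. At Trp63 all 4 and at Tprg both were lower. The 4 at Trp63 lie within 32 bases and 3 of them share reads, so they are not 4 separate observations.

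Of 12 genes of the p53 family and its regulators, 2 (16.7%) were listed, where 7.19% of all genes tested by the authors were listed. Trp63, a member here, is 1 of the 2, so nothing is read from this share. Besides Trp63 the listed gene was Trp53bp2, a protein that binds p53. By the authors' deposited table it had a log2 fold change of 0.81 (SE 0.27) and an edgeR false discovery rate of 0.058. Trp53, Trp73 and Mdm2 were not listed.

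Of 20 basal and myoepithelial genes 9 were listed, 8 positive and 1 negative. Trp63 is itself one of them, and besides it 8 of 19 were listed, 7 of them positive. Over all genes 7.19% were listed and 58% of those were positive. Of 15 luminal genes 7 were listed, 3 positive and 4 negative, so 45% of the basal and 46.7% of the luminal genes were listed. The basal list shares 7 of its genes with the p63 targets. Beyond those already named it held Mylk and Cnn1, both of the contractile apparatus, at 3.05 (SE 0.51) and 2.24 (SE 0.65), and Krt15 at 3.11 (SE 0.88) by the authors' deposited table. Acta2, Myh11 and Oxtr, which define contractile myoepithelium, were not listed. Of 15 genes of differentiated skin keratinocytes 2 were listed, Dsg1a at 4.02 (SE 0.83) and Cdsn at 3.57 (SE 0.68) by the authors' deposited table, and Krt1, Krt10, Lor, Ivl and Flg were not. None of 12 lymphocyte genes and none of 14 fibroblast, endothelial and adipocyte genes were listed. Summed levels of these lists per tumour were not analysed here, and their part in the folds of Trp63 and Tprg was not tested.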

How the data were processed

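For every library of either assay, the submitters' processing notes name Bismark, Trim Galore, STAR, HTSeq, DESeq, FastQC and R 3.6.1, with no role or order. They name GRCm38 and mm10, whose coordinates are the same. The authors deposited, per the file headers, 1 mean normalised count per gene (a signal pooled over libraries), log2 fold changes with standard errors, and adjusted p-values from DESeq and edgeR for 1324 genes on 1333 lines. Every line has a DESeq adjusted p under 0.05, and dividing adjusted by raw p gives 18425 genes tested. The last listed gene ranks 1521, so the table does not hold every gene under the threshold. All identifiers matched a symbol, and 1269 genes were placed by symbol on GRCm38.p6.

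For RRBS the authors deposited counts of methylated and of all reads per library. Every listed position has a coverage of at least 10 reads in each library and a pooled difference of at least 25.0 points. Regions carry the authors' mean methylation as a fraction, printed as percent. Here levels were computed per library and averaged, with exact (Clopper-Pearson) 95% intervals. A level of 0 is given with the limit of 3 counts.

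Python 3.11.15, numpy 2.4.6, scipy 1.17.1 and pandas 2.3.3 were used. The coverage measure was tested on simulated data. Members and gene lists were chosen with earlier results of these data known. Named genes are Trp63, Tprg, listed members of the p63 target and p53 family lists, listed genes within 5 Mb, all positions of the interval, the nearest on each side and the 5 most alike; cell type genes come from marker lists. The depth of single RNA libraries was not used here.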

Additional observations from a re-analysis of the deposited data

Results flagged for a closer look

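On chromosome 16, maternal genistein replicate 3 stood apart from its group in relative RRBS coverage, at -0.15 on the log2 scale against 0.15, 0.18 and 0.14 in replicates 1, 2 and 4. It was examined among 12 groups of 4 values, of which position 25466091 had no range, and chance marks about 1 group in 20. The level of no CpG position in the interval stood apart in this way.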

How the results depend on the processing

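The median methylation difference over the 9 positions kept its direction under every alternative run. It lay between -56.3 and -34.1 points without each library in turn, and was -44.3 points with reads pooled within groups and -41.4 points over the 6 positions with at least 20 reads in every library. With the replicate number as a block it was -56.3 points. The differences at single positions kept their sign in all 87 alternatives, and that at 25377243 went from -28.0 to -18.2 points without maternal genistein replicate 2. The coverage difference of chromosome 16 lay between 0.12 and 0.25 without each library in turn (highest without maternal genistein replicate 3), and that within 10 Mb between 0.13 and 0.42 (lowest without control replicate 1); with all libraries kept and no block, exact permutation p ran from 0.0857 to 0.171 and from 0.114 to 0.343 over the other settings. The runs without 1 library could not reach 0.05, since the smallest p they allow is 0.0667 without a control and 0.1 without a maternal genistein library, and without maternal genistein replicate 3 both differences were at that smallest p of 0.1. With the replicate block they were 0.15 and 0.29 (exact permutation p = 0.5 for each, smallest possible 0.25). Libraries that share a number did not deviate together over 4327 positions (r = 0.02, 0.01 and -0.03), so the block rests on a number alone. Of the p63 targets, 8 positive and 0 negative ones were left at a DESeq adjusted p under 0.01, where 13 and 3 were listed at 0.05, because fewer genes pass. The negative Itga6 missed that threshold narrowly, at a DESeq adjusted p of 0.0102, and the share over all listed genes at 0.01 is not given here. Depth limits maternal genistein replicate 4 most, with 10 reads at 3 of the Trp63 positions.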

Other observations

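Listed luminal genes went in both directions. Of 15, 7 were listed (46.7%), where 7.19% of all genes tested by the authors were listed. Of these 3 were positive and 4 negative in the authors' deposited table, where 58% of all listed genes were positive. Aldh1a3, an enzyme of luminal progenitors, was at 2.15 (SE 0.63) there, Ly6a at 1.71 (SE 0.33) and Pgr, the progesterone receptor, at 2.96 (SE 0.67). Elf5, a regulator of alveolar cells, was at -2.68 (SE 0.50) by the authors' deposited table, the growth factor Areg at -2.64 (SE 0.51), the prolactin receptor Prlr at -1.55 (SE 0.41) and the luminal keratin Krt18 at -1.18 (SE 0.40). Of 12 macrophage and neutrophil genes Arg1 was listed, at 1.88 (SE 0.56), and of 10 skeletal muscle genes Tnni2, at 3.74 (SE 0.71), by the authors' deposited table. These are 8.33% and 10% of the 2 lists, near the 7.19% of all tested genes, so nothing is read from them.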
